A study of Mus musculus with 18 samples.

Results

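The genes described here encode insulin and the proteins that turn prohormones into hormones inside the secretory granule. They were Ins1 and Ins2, the insulin genes of the mouse, Iapp, the gene of islet amyloid polypeptide, the convertases Pcsk1 and Pcsk2, the trimming and amidating enzymes Cpe and Pam, and Scg5 and Pcsk1n, which encode binding partners of the convertases. The rule took them by name and role and used no measured value, but they were chosen with earlier results of these data known. All 9 were among the 6929 genes tested. MIN6, a mouse insulinoma line, was exposed to 200 µM cyclopiazonic acid (CPA), which blocks the calcium pump of the endoplasmic reticulum (ER), for 1 h (CPA1) or 18 h (CPA18). Control cells received the vehicle DMSO for 18 h, so no 1 h vehicle group was compared. Poly(A) RNA (mRNA-seq) and RNA fragments protected by ribosomes (Ribo-seq) were sequenced from the same 3 independent experiments, which gave 18 libraries with 3 per group. All groups came from a single tumour-derived line, and no primary islet cells were measured here.

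Insulin is made as a precursor that folds in the ER, where its disulfide bonds form, and is cut in the maturing granule. The convertase PC1/3, encoded by Pcsk1, cuts at the junction of the B chain and the C-peptide, and PC2, encoded by Pcsk2, cuts at the junction of the C-peptide and the A chain. Carboxypeptidase E then removes the basic residues left behind by the cuts. Islet amyloid polypeptide is stored with insulin, is cut by the same enzymes and receives its terminal amide from the enzyme encoded by Pam.

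In build GRCm38 the insulin genes lie apart, Ins1 (gene ID 16333) at chr19:52264297-52265015 and Ins2 (16334) at chr7:142678656-142679726, and Iapp (15874) lies at chr6:142298425-142303820. The convertase genes are Pcsk1 (18548) at chr13:75089420-75134861 and Pcsk2 (18549) at chr2:143546133-143816284. Cpe (12876) is at chr8:64592542-64693109, Pam (18484) at chr1:97821091-98095853, Scg5 (20394) at chr2:113776313-113829091 and Pcsk1n (30052) at chrX:7919822-7924410. Reads were counted on mature transcripts, 3 of Ins2, 2 of Pam and 1 of each other gene.

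The cut sites stand in the coding sequences as pairs of codons for a basic residue followed by arginine. Ins1 held 2 such pairs in its 108 codons and Iapp held 2 in its 93 codons, in the RefSeq sequence of build GRCm38. The stretch around the C-peptide of Ins1 is shown because it is what PC1/3 and PC2 act on, and the stretch of Iapp because its second pair follows the glycine codon from which the amide is made. Ins1 is at chr19:52264768-52264902 on the plus strand and Iapp at chr6:142303316-142303465 on the plus strand, each inside the last exon of its gene. Capitals mark the basic pairs and, in Iapp, the glycine codon.
Ins1 coding: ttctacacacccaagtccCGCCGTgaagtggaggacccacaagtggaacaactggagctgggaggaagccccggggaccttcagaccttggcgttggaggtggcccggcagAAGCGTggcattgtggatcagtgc
Iapp coding: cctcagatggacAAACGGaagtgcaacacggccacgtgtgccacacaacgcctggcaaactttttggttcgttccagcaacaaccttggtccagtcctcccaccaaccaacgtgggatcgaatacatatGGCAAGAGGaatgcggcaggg
The pairs enclosed 29 codons in Ins1, the C-peptide, and 38 codons in Iapp, of which the last is the glycine.

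The insulin genes are near copies of each other, which bears on how reads of footprint length can be assigned. Of the 574 windows of 28 bases in the Ins1 transcript, 9.76% were identical to a stretch of an Ins2 transcript and 24% matched with at most 1 mismatch. The longest run of identical coding bases was 56. How reads matching both genes were assigned is not given in the sources used here, so the separate values of Ins1 and Ins2 are uncertain to that extent, and their sum was tested as well.

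The bases before the transcription start were read for 7 of the 9 genes. Those of Ins1 and Iapp are shown because the factors that drive both genes bind known elements there: the A-box core TAAT, bound by homeodomain factors such as PDX1, and the E-box CATCTG, bound by NEUROD1. Both strands were searched in the 250 bases before each start, and capitals mark each match. The Ins1 window is chr19:52264047-52264296 and the Iapp window chr6:142298175-142298424, both on the plus strand in build GRCm38 and taken from RefSeq.
Ins1 before the start: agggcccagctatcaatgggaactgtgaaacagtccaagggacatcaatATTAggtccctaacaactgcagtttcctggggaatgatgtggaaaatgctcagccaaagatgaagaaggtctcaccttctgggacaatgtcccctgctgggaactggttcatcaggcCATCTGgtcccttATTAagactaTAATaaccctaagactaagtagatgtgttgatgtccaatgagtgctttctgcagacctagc
Iapp before the start: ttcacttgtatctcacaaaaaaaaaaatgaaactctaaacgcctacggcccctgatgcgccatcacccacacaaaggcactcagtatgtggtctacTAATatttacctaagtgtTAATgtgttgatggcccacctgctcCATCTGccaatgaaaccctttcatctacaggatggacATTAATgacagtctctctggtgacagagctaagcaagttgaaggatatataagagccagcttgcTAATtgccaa
Ins1 held 3 A-box cores and 1 E-box, and Iapp held 5 A-box cores, of which 2 overlap, and 1 E-box. Of 32851 mouse promoter windows of this length, 54.9% held TAAT and 14.4% held CATCTG. Among the other genes read, Pcsk1, Scg5 and Pcsk1n also held TAAT. Pcsk1 held the cAMP response element TGACGTCA, found in 1.55% of windows, at 78 to 71 bases before its start. TGATGCAA, the element of ATF4 and CHOP, and TGACGTGG, the core of the unfolded protein response element, were in 0.791% and 0.563% of all windows and in none of these genes' windows.

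Total counts ran from 520960 to 4755030 reads in the mRNA-seq libraries and from 168129 to 1083297 in the Ribo-seq libraries. Reads of Lars2, which encodes a mitochondrial tRNA ligase, made up 4.75 to 54.8% of the mRNA-seq counts and differed between experiments of the same group. That share enters every level scaled to the total count, and its part in the results was not tested beyond the scalings named below. The 8 beta cell markers, of which Ins1, Ins2 and Iapp are members here, had reads in every library. Markers of other cell types were near 0, with at most 11 reads of Sst, 6 of Ppy, 4 of Sox9 and 9 of Cd68 in a library and none of Prss2, Pnlip, Col3a1 and Ptprc. The exception was Gcg, the glucagon gene, with up to 289 reads and 235 RPKM (reads per kilobase of transcript, scaled to the total count of the library). In bulk samples such as these, fewer cells expressing a gene and less RNA per cell cannot be told apart.

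In control cells the order of the levels was led by the hormones. Ins2 stood at 262916 ± 130231 RPKM in mRNA-seq (mean ± SD, n = 3), 6.11 times Iapp, and no Ins2 library overlapped an Iapp library. Iapp (43011 ± 14366 RPKM) and Ins1 (26568 ± 13955 RPKM) overlapped each other. Of the processing proteins, Cpe was highest with 1162 ± 165 RPKM and stood apart from Scg5 at 733 ± 229 RPKM, which overlapped Pcsk2 at 522 ± 152 RPKM. Pcsk2 also overlapped Pcsk1n at 477 ± 216 RPKM. Pam, at 24.04 ± 9.49 RPKM, was 19.8 times below Pcsk1n, and Pcsk1, at 14.9 ± 6.37 RPKM, overlapped Pam. In Ribo-seq the order was the same except that Pcsk1, at 56.8 ± 6.27 RPKM, stood above Pam, at 22.5 ± 1.36 RPKM.

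**Figure D1:**
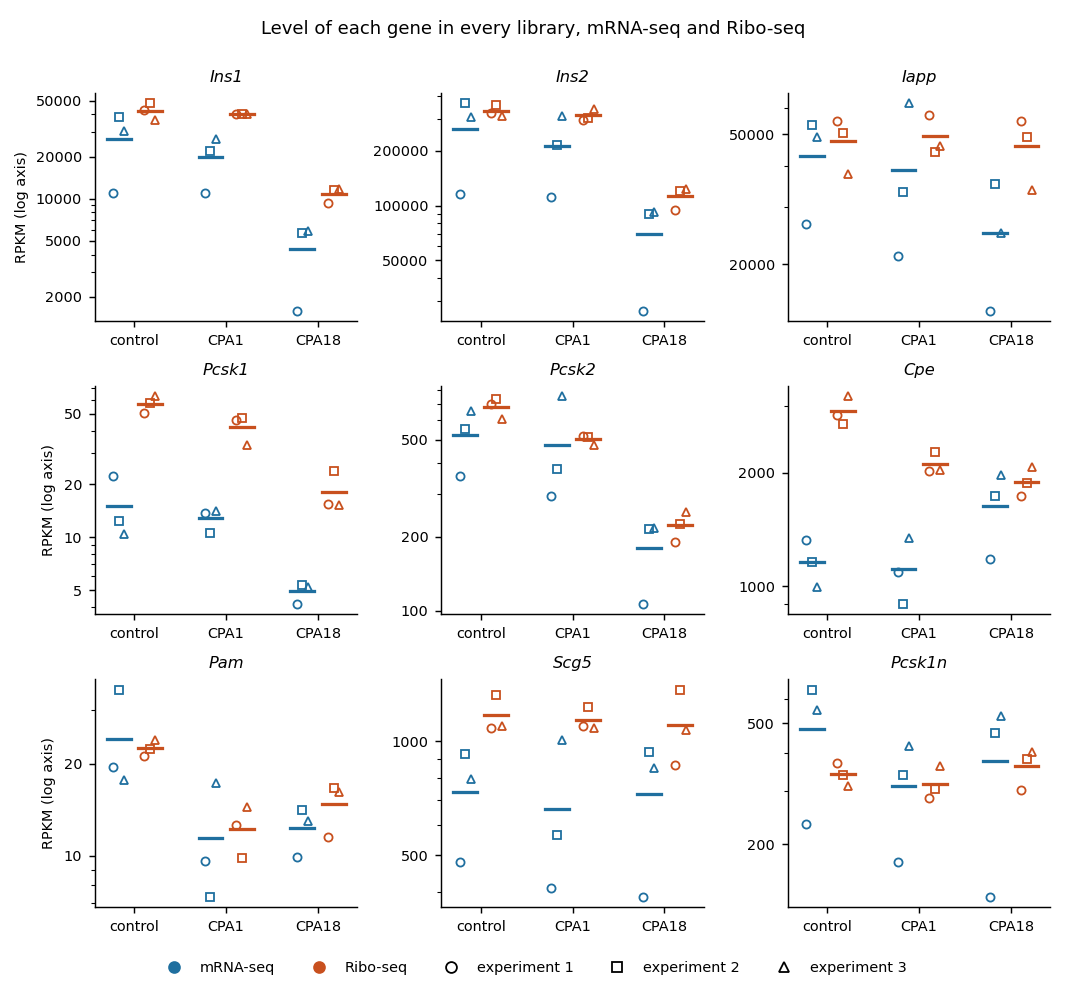
Level of each gene in every library in RPKM on a log axis, with the 3 groups side by side, mRNA-seq in blue and Ribo-seq in orange, a symbol per experiment and a bar at the mean of the 3 libraries. In both assays all CPA18 libraries of Ins1, Ins2, Pcsk1, Pcsk2 and Pam lie below all controls, while Scg5 and Pcsk1n overlap their controls.

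After 18 h of CPA both insulin genes fell in mRNA and in ribosome footprints. Ins2 mRNA was at 116317, 365226 and 307204 RPKM in control experiments 1, 2 and 3, and at 26417, 90251 and 92194 RPKM in CPA18. Every CPA18 library was below every control library, and the library of experiment 1 was the lowest in both groups. Lars2 took 45.1% of the counts in that control library, against 7.19 and 15.1% in the others. In the fit that keeps the experiment as a block, Ins2 mRNA fell 3.9-fold (log2 change -1.96, SE 0.44, adjusted p = 0.000115, edgeR quasi-likelihood test with Benjamini-Hochberg adjustment over all genes). Without the block the same test gave an adjusted p of 0.265, and without experiment 1 an adjusted p of 0.186.

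Ins1 had the larger fitted change of the insulin genes. Its mRNA was at 11073, 38147 and 30484 RPKM in control and at 1591, 5671 and 5935 RPKM in CPA18, with no overlap. The change was 6.21-fold (log2 -2.63, SE 0.33, adjusted p = 1.66e-12 by edgeR, 0.0838 without the block). Summed over both genes, insulin mRNA fell 4.06-fold (log2 -2.02, SE 0.45), with an adjusted p of 0.000115 by edgeR, 0.256 without the block and 0.204 without experiment 1. Insulin reads made up 6.60, 20.9 and 17.5% of all counted mRNA reads in control and 1.44, 4.94 and 5.06% in CPA18.

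Footprints on insulin mRNA followed the same direction with a smaller spread between experiments. Ins2 footprints were at 322472, 356886 and 309236 RPKM in control and at 94327, 119663 and 123673 RPKM in CPA18. Ins1 footprints were at 43251, 47904 and 36290 RPKM in control and at 9382, 11467 and 11771 RPKM in CPA18. Neither gene overlapped between the groups. Footprints fell 2.94-fold on Ins2 (log2 -1.56, SE 0.16, adjusted p = 4.14e-14 by edgeR) and 3.9-fold on Ins1 (log2 -1.96, SE 0.16, adjusted p = 2.78e-20 by edgeR). Both calls held without the block and under every alternative run in Ribo-seq.

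Iapp, the hormone stored with insulin, did not pass the test in either assay. Its mRNA was at 26607, 53345 and 49081 RPKM in control and at 14426, 35280 and 24998 RPKM in CPA18, lower in each experiment but with overlapping groups. The log2 change was -0.80 (SE 0.35, adjusted p = 0.0637 by edgeR), and the adjusted p fell below 0.05 when the library total was taken without Ins1 and Ins2 (0.036), without Lars2 (0.00533) or by TMM (0.00586), in 7 of the 14 alternative settings in all. Iapp footprints were at 54680, 50423 and 37772 RPKM in control and at 55000, 49162 and 33785 RPKM in CPA18. Experiment by experiment they lay close together, and the log2 change of -0.06 had an interval of 2 SE from -0.37 to 0.25. Over the 14 alternative settings the change in footprints ran from -0.44 to -0.0049, and it was called in none. Relative to the median gene, Iapp footprints changed by -0.47, -0.45 and -0.47 on the log2 scale in experiments 1, 2 and 3.

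Both convertase genes fell in both assays. Pcsk2, which encodes PC2, was at 356, 554 and 655 RPKM in control mRNA and at 107, 215 and 217 RPKM in CPA18, with no overlap. The mRNA fell 2.94-fold (log2 -1.56, SE 0.27, adjusted p = 3.10e-07 by edgeR, 0.165 without the block). Pcsk2 footprints were at 699, 729 and 607 RPKM in control and at 191, 225 and 254 RPKM in CPA18, a fall of 3.01-fold (log2 -1.59, SE 0.16, adjusted p = 2.56e-15 by edgeR). Footprints on Pcsk2 were below every control library in every CPA18 library, and the call held without the block.

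Pcsk1, which encodes PC1/3, was read from few counts. Its mRNA was at 22.2, 12.3 and 10.4 RPKM in control and at 4.18, 5.33 and 5.22 RPKM in CPA18, from 26 to 134 reads a library over all mRNA-seq libraries. It fell 2.79-fold (log2 -1.48, SE 0.31, adjusted p = 3.37e-05 by edgeR, 0.0838 without the block). Pcsk1 footprints were at 50.3, 57.3 and 62.8 RPKM in control and at 15.4, 23.6 and 15.1 RPKM in CPA18, again without overlap. The fall in footprints was 3.24-fold (log2 -1.69, SE 0.23, adjusted p = 9.65e-10 by edgeR), with or without the block.

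Of the trimming and amidating enzymes, Cpe was called in footprints and Pam in mRNA. Cpe, which encodes carboxypeptidase E, was at 1327, 1163 and 998 RPKM in control mRNA and at 1182, 1737 and 1973 RPKM in CPA18. The groups overlapped, experiment 1 was lower and the other experiments were higher, and the log2 change of 0.47 (SE 0.27) had an adjusted p of 0.172 by edgeR. With Lars2 omitted from the library total the change of 0.50 was called higher, with an adjusted p of 0.00933. Footprints on Cpe were at 2847, 2692 and 3185 RPKM in control and at 1731, 1879 and 2075 RPKM in CPA18, without overlap. They fell 1.54-fold (log2 -0.62, SE 0.15, adjusted p = 0.000595 by edgeR, 0.00784 without the block), and limma on log2 RPKM gave an adjusted p of 0.0886.

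Pam, which encodes the enzyme that amidates peptides, was at 19.5, 34.95 and 17.7 RPKM in control mRNA and at 9.93, 14.1 and 13.04 RPKM in CPA18. The groups did not overlap, and the mRNA fell 1.94-fold (log2 -0.95, SE 0.30, adjusted p = 0.00663 by edgeR, 0.273 without the block). Without experiment 2 the adjusted p was 0.132, and without the control libraries of experiment 2 it was 0.376 with a log2 change of -0.48. Pam footprints, with 8 to 107 reads a library over all Ribo-seq libraries, were at 21.2, 22.4 and 23.9 RPKM in control and at 11.5, 16.7 and 16.2 RPKM in CPA18. That change did not pass the test (log2 -0.60, SE 0.28, adjusted p = 0.0953 by edgeR), although the groups did not overlap. The adjusted p was 0.0214 when the library total omitted the insulin genes and 0.00489 with TMM.

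The partners of the convertases did not pass the test after 18 h. Scg5 encodes 7B2, which escorts the precursor of PC2 and holds it inactive until the granule, and its mRNA was at 479, 924 and 795 RPKM in control and at 388, 936 and 848 RPKM in CPA18. Scg5 footprints were at 1086, 1326 and 1100 RPKM in control and at 864, 1368 and 1071 RPKM in CPA18. The log2 changes were -0.06 in mRNA, with an interval of 2 SE from -0.56 to 0.44, and -0.10 in footprints, with an interval from -0.40 to 0.21, and the sign turned in both when experiment 1 was left out. Under TMM and DESeq2 scaling the footprint change was called, with adjusted p of 0.0259 and 0.0387, at log2 changes of -0.47 and -0.48.

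Pcsk1n encodes proSAAS, an inhibitor of PC1/3. Its mRNA was at 234, 646 and 552 RPKM in control and at 134, 463 and 527 RPKM in CPA18, lower in each experiment with overlapping groups (log2 -0.43, SE 0.25, adjusted p = 0.163 by edgeR). That change was called under 4 alternatives, with adjusted p of 0.00095 by TMM, 6.71e-05 by DESeq2, 0.0167 with the library total taken without Lars2 and 0.00159 with it taken without Ins1, Ins2 and Lars2. Pcsk1n footprints were at 369, 339 and 312 RPKM in control and at 302, 381 and 402 RPKM in CPA18. Their log2 change of 0.09 had an interval of 2 SE from -0.23 to 0.41, and turned to -0.29 under TMM and -0.13 when the total omitted the insulin genes.

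**Figure D2:**
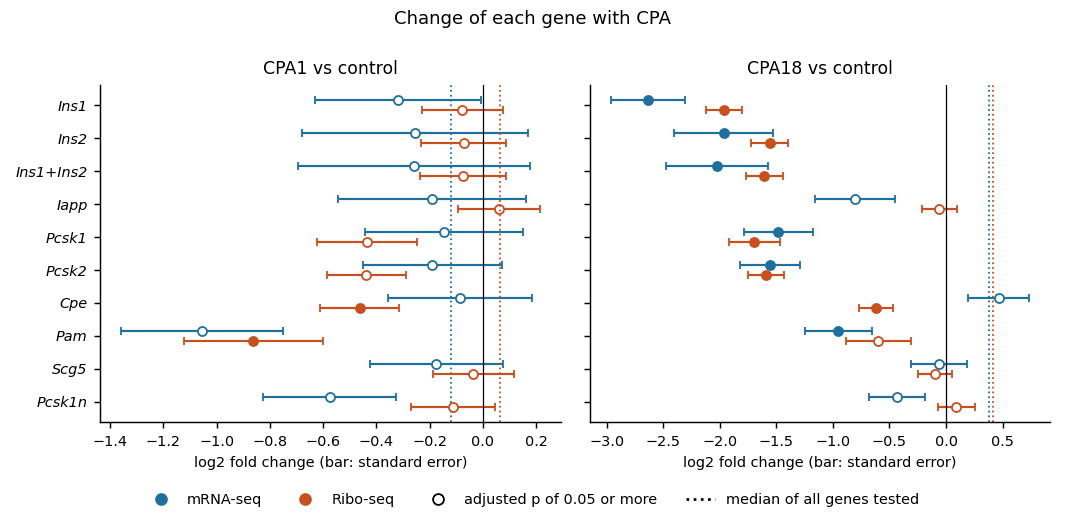
Log2 fold change of each gene, and of the summed insulin genes, in CPA1 and CPA18 against control, with mRNA-seq in blue and Ribo-seq in orange, bars of 1 standard error, filled points for an adjusted p under 0.05 and dotted lines at the median of all genes tested. In CPA18 the insulin and convertase genes lie at or below -1.48 in both assays, while Scg5 and the footprints of Iapp and Pcsk1n lie between -0.10 and 0.09.

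Counted over the 9 genes, 5 were called lower in mRNA (Ins1, Ins2, Pcsk1, Pcsk2, Pam) and 5 in footprints (Ins1, Ins2, Pcsk1, Pcsk2, Cpe) at CPA18 against control, and none higher. Of all genes tested, 7.89% were called lower and 27% higher in mRNA, and 6.25% lower and 25.6% higher in footprints. Under TMM scaling 16% of all genes were called lower and 16.3% higher in mRNA, and 12.2% lower and 11.9% higher in footprints, while 7 of the 9 members were called lower in each assay. Without the block 0 of the 9 were called in mRNA and the same 5 in footprints. Of the 6929 genes tested, 38 in mRNA and 349 in footprints were called lower without the block. A fit chosen after seeing the data had no block and a library total that omitted Ins1, Ins2 and Lars2. There 4 members were called lower in mRNA, as were 161 of the 6929 genes tested. The adjusted p of these members by edgeR was 0.00538 for Ins1, 0.0393 for Ins2, 0.0428 for Pcsk1 and 0.00308 for Pcsk2. Summed insulin was called as well (adjusted p = 0.0387 by edgeR). In mRNA 5 genes, and in footprints 6 genes, lay below every control library, where 5.43 and 8.75% of all genes did. The median gene of all those tested rose by 0.38 in mRNA and 0.42 in footprints on the log2 scale, and was 0.01 in mRNA and 0.06 in footprints under TMM. Relative to the median gene, 8 of the 9 were lower in all 3 experiments in each assay, Cpe being the exception in mRNA and Pcsk1n in footprints. The share of all genes that did so is not given here, so this count has no background to be set against.

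At 1 h no member passed the edgeR test in mRNA, where 0.433% of all genes were called lower, with 2 at an unadjusted p under 0.05, as for 6.57% of all genes, and none called by DESeq2 or limma. Those 2 were Pam and Pcsk1n. Pam mRNA was at 9.59, 7.34 and 17.4 RPKM in CPA1, just below the lowest control in experiment 3 (log2 -1.05, SE 0.30, adjusted p = 0.0576 by edgeR). It was called without experiment 3 (log2 -1.64, adjusted p = 0.0117) and with the insulin genes omitted from the total (adjusted p = 0.0296). Pcsk1n mRNA was at 175, 337 and 422 RPKM (log2 -0.58, SE 0.25, adjusted p = 0.525). Summed insulin mRNA changed by -0.26 on the log2 scale, with an interval of 2 SE from -1.13 to 0.61, and summed insulin footprints by -0.07, with an interval from -0.40 to 0.25.

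In footprints 2 of the 9 genes were called lower at 1 h, where 2.92% of all genes were. Cpe footprints were at 2020, 2267 and 2032 RPKM in CPA1, below every control (log2 -0.46, SE 0.15, adjusted p = 0.0377 by edgeR). Pam footprints were at 12.6, 9.86 and 14.4 RPKM, also below every control (log2 -0.86, SE 0.26, adjusted p = 0.0264 by edgeR). Neither call held without the block, with adjusted p of 0.156 and 0.075, or when any experiment was left out, with adjusted p from 0.153 to 0.217 for Cpe and from 0.0721 to 0.268 for Pam. The footprints of both convertases were below every control too, Pcsk2 by -0.44 (SE 0.15, adjusted p = 0.0589) and Pcsk1 by -0.43 (SE 0.19, adjusted p = 0.171) on the log2 scale. The share of all genes with CPA1 footprints below every control is not given here, so this lack of overlap has no background to be set against. The remaining 5 genes lay between -0.11 and 0.06.

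From 1 h to 18 h the same 4 genes were called lower in both assays, Ins1, Ins2, Pcsk1 and Pcsk2. All genes tested were called lower at a rate of 5.77% in mRNA and 5.41% in footprints. In mRNA the log2 changes were -2.31 for Ins1 (SE 0.33, adjusted p = 3.85e-10 by edgeR), -1.71 for Ins2 (SE 0.44, adjusted p = 0.000716), -1.34 for Pcsk1 (SE 0.30, adjusted p = 0.000145) and -1.37 for Pcsk2 (SE 0.27, adjusted p = 7.97e-06). In footprints they were -1.88 for Ins1 (SE 0.16), -1.49 for Ins2 (SE 0.16), -1.26 for Pcsk1 (SE 0.24) and -1.15 for Pcsk2 (SE 0.16), with adjusted p by edgeR from 4.61e-19 to 1.28e-05. The mRNA calls were lost without the block, with adjusted p from 0.105 to 0.303 by edgeR, while the footprint calls held. When the total also omitted Ins1, Ins2 and Lars2, 2 members were called in mRNA without the block. Of all genes tested, 41 and 144 were called lower in mRNA in these 2 fits. The mRNA call of Ins2 was also lost without experiment 1 (adjusted p = 0.278 by edgeR).

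Ribosome occupancy, the RPKM of Ribo-seq divided by that of mRNA-seq in the same experiment, asks whether footprints changed beyond mRNA. The test was the assay by treatment term of a fit over all 18 libraries, with the experiment as a block within each assay. The pairing of mRNA-seq and Ribo-seq libraries of the same treatment and experiment was not used in that test. No member was called by edgeR in any comparison, where 0.0866% of all genes were called at CPA1, 0.476% at CPA18 and 0.0722% from CPA1 to CPA18, in either direction. At an unadjusted p under 0.05 there were 0, 3 and 1 members, where 7.12, 9.18 and 5.99% of all genes were. DESeq2 called 1 member at CPA18 and none in the other comparisons, while limma called none.

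Cpe had the largest log2 difference in occupancy of the 9 genes at CPA18. Its occupancy was 2.15, 2.31 and 3.19 in control, 1.85, 2.52 and 1.51 in CPA1 and 1.47, 1.08 and 1.05 in CPA18, so that every CPA18 value was below every control value, as for 3.8% of all genes. The log2 change at CPA18 was -1.09 (SE 0.30, adjusted p = 0.0767 by edgeR). The adjusted p was 0.00737 with TMM, 1.63e-07 with DESeq2, 0.00566 when the totals omitted the insulin genes and Lars2, 0.00663 when they omitted Lars2 and 0.0117 without the filter on low counts, and 1.00 without the block. Ranked by mean occupancy, Cpe stood at percentile 75.7 of all genes in control cells, at 62.5 after 1 h and at 38.8 after 18 h.

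The hormone genes were higher in occupancy at CPA18 in each experiment without passing the test. So was Pcsk1n (log2 0.52, SE 0.30, adjusted p = 0.603 by edgeR). In experiment 1 the median gene changed by 0.53 on the log2 scale and summed insulin by 0.37. In experiments 2 and 3 the median gene changed by -0.09 and -0.23, and summed insulin by 0.45 and 0.43. Ins1 was at 3.91, 1.26 and 1.19 in control and at 5.90, 2.02 and 1.98 in CPA18 (log2 0.67, SE 0.30, adjusted p = 0.495 by edgeR). Iapp was at 2.06, 0.945 and 0.770 in control and at 3.81, 1.39 and 1.35 in CPA18 (log2 0.74, SE 0.32, adjusted p = 0.452 by edgeR). In Ins1 and Iapp the value of experiment 1 was the highest in every group. The occupancy of summed insulin changed by 0.42 (SE 0.33) at CPA18 and by 0.19 (SE 0.33) at CPA1 on the log2 scale, and the value at CPA1 was -0.03 when the totals omitted Lars2. Pcsk1 had the highest mean occupancy of the 9 in control cells, 4.34 ± 1.92, at percentile 88.9 of all genes, and Pcsk1n the lowest, 0.889 ± 0.597, at percentile 26.9.

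**Figure D3:**
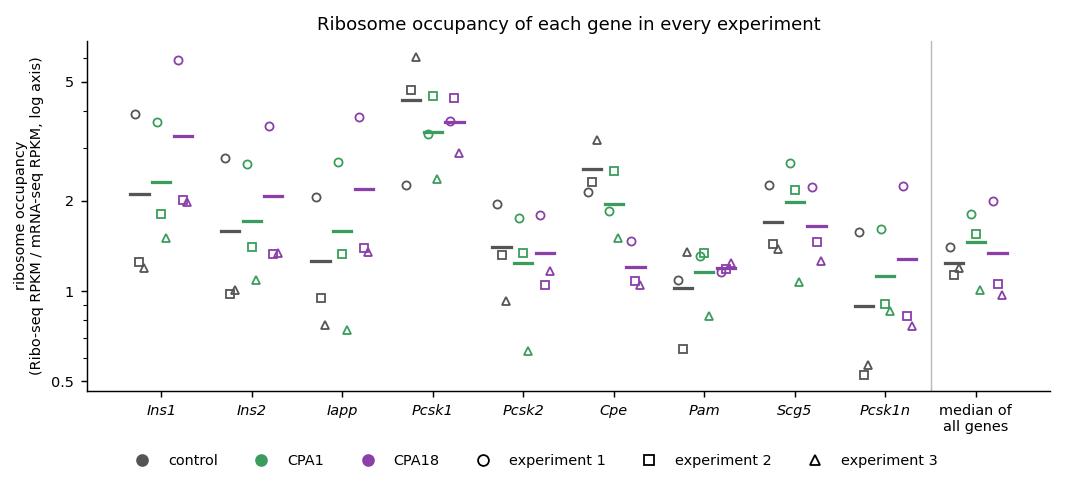
Ribosome occupancy (Ribo-seq RPKM divided by mRNA-seq RPKM, log axis) of each gene by group, a symbol per experiment and a bar at the mean, with the median of all genes at the right. The CPA18 values of Cpe, 1.05 to 1.47, lie below its controls, 2.15 to 3.19, while the CPA18 and control values of the other 8 genes overlap.

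Ratios between genes within a library do not depend on the library total, so the share of Lars2 does not enter them. With 3 libraries against 3 the two-sided exact permutation test could not go below p = 0.1, and over the 30 ratio comparisons made the smallest adjusted value was 0.188. The ratios at that limit are those whose groups did not overlap.

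At CPA18 Ins1 stood lower relative to Ins2 than in control. The ratio of Ins1 to Ins2 in mRNA was 0.0952, 0.104 and 0.0992 in control, 0.0982, 0.102 and 0.0860 in CPA1 and 0.0602, 0.0628 and 0.0644 in CPA18. All CPA18 libraries were below the others and close together, with a mean log2 ratio lower than control by 0.67, 1.59-fold (exact permutation p = 0.1). In footprints the ratio was 0.134, 0.134 and 0.117 in control and 0.0995, 0.0958 and 0.0952 in CPA18, 1.33-fold lower (exact permutation p = 0.1).

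Iapp stood higher relative to insulin at CPA18. The ratio of Iapp to summed insulin in mRNA was 0.209, 0.132 and 0.145 in control and 0.515, 0.368 and 0.255 in CPA18, 2.29-fold higher (exact permutation p = 0.1). In footprints it was 0.150, 0.125 and 0.109 in control, 0.170, 0.129 and 0.121 in CPA1 and 0.530, 0.375 and 0.249 in CPA18, 2.90-fold higher at 18 h than in control (exact permutation p = 0.1). Experiment 1 had the highest ratio and experiment 3 the lowest in CPA18 in both assays.

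The partners of the convertases stood higher relative to the convertases in every experiment at CPA18, and the proportion of the convertases overlapped between groups. Scg5 to Pcsk2 in mRNA was 1.34, 1.67 and 1.21 in control, 1.39, 1.49 and 1.35 in CPA1 and 3.64, 4.35 and 3.91 in CPA18, 2.84-fold higher at 18 h (exact permutation p = 0.1). In footprints it was 1.55, 1.82 and 1.81 in control, 2.12, 2.41 and 2.29 in CPA1 and 4.52, 6.08 and 4.22 in CPA18, so the groups did not overlap at 1 h (1.32-fold, exact permutation p = 0.1) or at 18 h (2.83-fold, exact permutation p = 0.1). Pcsk1n to Pcsk1 footprints were at 7.33, 5.91 and 4.96 in control and at 19.5, 16.2 and 26.6 in CPA18, 3.39-fold higher (exact permutation p = 0.1). In mRNA the same ratio was 10.5, 52.6 and 53.3 in control and 32.1, 86.8 and 101 in CPA18, higher in each of the 3 experiments while the groups overlapped (2.12-fold, exact permutation p = 0.4 in a test that does not use the pairing by experiment). Pcsk1 to Pcsk2 ranged from 0.072 to 0.103 in control footprints and from 0.0596 to 0.105 in CPA18 footprints (exact permutation p = 1).

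**Figure D4:**
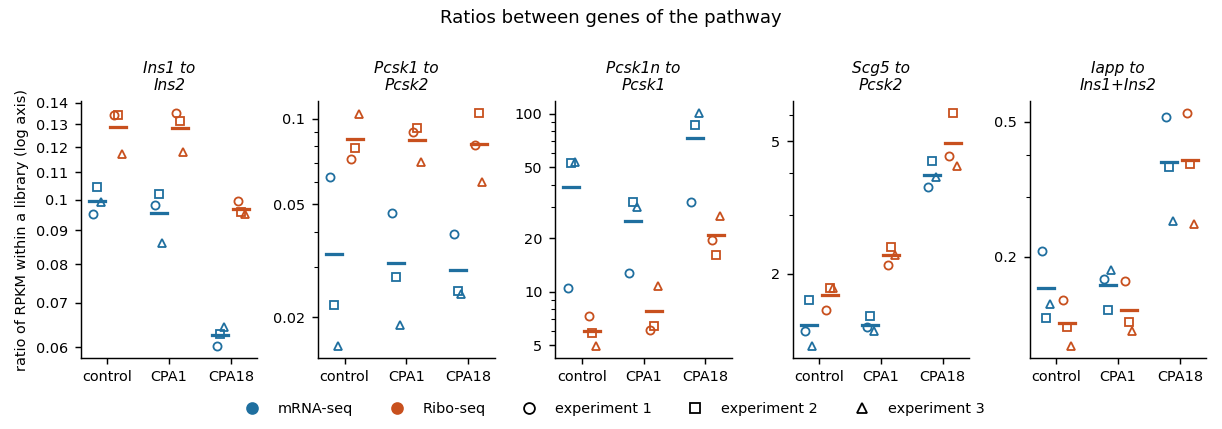
Ratio of RPKM between pairs of genes within each library on a log axis, for control, CPA1 and CPA18, with mRNA-seq in blue, Ribo-seq in orange, a symbol per experiment and a bar at the mean. Ins1 to Ins2 is lower, and Scg5 to Pcsk2 and Iapp to Ins1+Ins2 are higher, in every CPA18 library than in every control, while Pcsk1 to Pcsk2 overlaps.

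The genes around this pathway were read from lists by role. Of 18 genes that fold proinsulin or dispose of it in the ER, 13 rose and 1 fell in mRNA at CPA18, and 14 rose and 1 fell in footprints, where 27 and 25.6% of all genes were called higher. The list median was 1.19 in mRNA and 1.07 in footprints on the log2 scale, above the median gene. Dnajb9, which encodes an ER co-chaperone, rose by 1.85 (SE 0.31) in mRNA and 1.12 (SE 0.23) in footprints, and Syvn1, the ubiquitin ligase of ER-associated degradation, rose by 1.84 (SE 0.26) and 1.32 (SE 0.19). The gene that fell was Ero1b, the ER oxidase enriched in beta cells, at 138 ± 55.5 RPKM in control mRNA and 45.8 ± 7.88 RPKM in CPA18 (n = 3, log2 -1.53, SE 0.25, adjusted p = 4.84e-08 by edgeR). Without the block no gene of this list was called in mRNA and 13 were called in footprints. At 1 h no gene of the list was called in mRNA by edgeR. In footprints at 1 h 2.92% of all genes were called lower, and without the block 2 genes of the list were called. With the block 5 were called lower, Canx, Pdia3, P4hb, Hsp90b1 and Pdia4, by 0.52 to 0.81 on the log2 scale. These 5, and below Insm1, Foxa2, Atp6v1g1, Ctsl, Cpd and Furin, were named after their values were seen.

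Most tested transcription factors of the insulin genes were called lower. Of 16 listed, 13 were tested, of which 9 fell and none rose in mRNA at CPA18, and 8 fell and 1, Insm1 (log2 0.63, SE 0.16), rose in footprints, where 7.89 and 6.25% of all genes were called lower. The list medians were -1.50 and -0.90 on the log2 scale. Under TMM none of the 13, Insm1 included, was called higher in either assay. With that scaling 10 were called lower in mRNA and 8 in footprints, where 16 and 12.2% of all genes were. Mafa, an activator of insulin transcription, was at 329 ± 152 RPKM in control mRNA and 67.8 ± 27.2 RPKM in CPA18 (n = 3, log2 -2.25, SE 0.26, adjusted p = 8.95e-15 by edgeR, 0.0372 without the block). Rfx6 fell by 2.25 (SE 0.35) in mRNA and by 1.82 (SE 0.25) in footprints on the log2 scale. At 1 h none of the 13 was called in mRNA by edgeR, and Mafa (log2 0.97, SE 0.16) and Foxa2 (log2 1.03, SE 0.19) were called higher in footprints. Of the 6929 genes tested, 260 were called higher in footprints at 1 h. Without the block 2 were called in mRNA and 8 in footprints at CPA18.

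Other prohormones and granins, cargo of the same enzymes and granules, were mostly called lower. Of 23 listed, 13 were tested, of which 10 fell in mRNA and 8 in footprints at CPA18, and none rose, against 7.89 and 6.25% of all genes called lower. The list medians were -0.97 and -1.06 on the log2 scale. Ucn3, the urocortin of mature beta cells and also among the beta cell markers, was at 30.7 ± 7.92 RPKM in control mRNA and 1.88 ± 0.25 RPKM in CPA18 (n = 3, log2 -4.00, SE 0.41, adjusted p = 2.81e-18 by edgeR, 0.000432 without the block). Scg2, which encodes secretogranin II, was at 5833 ± 419 RPKM in control footprints and 1559 ± 56.0 RPKM in CPA18 (n = 3, log2 -1.91, SE 0.16, adjusted p = 8.19e-20 by edgeR). Without the block 1 of the mRNA calls and 8 of the footprint calls were made.

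Granule acidification and the other convertases and peptidases moved less uniformly. Of 18 tested genes of the proton pump and chloride exchanger that acidify granules, 1 rose and 2 fell in mRNA, and 2 rose and 6 fell in footprints. Of all genes 27% rose and 7.89% fell in mRNA, and 25.6% rose and 6.25% fell in footprints. Under TMM none of the 18 rose and 10 fell in mRNA, and 1 rose and 9 fell in footprints. With that scaling 16.3% of all genes rose and 16% fell in mRNA, and 11.9% rose and 12.2% fell in footprints. Atp6ap2, an accessory subunit of the pump, fell by 1.16 (SE 0.26) in mRNA and 1.22 (SE 0.16) in footprints on the log2 scale, Atp6ap1 fell by 0.58 (SE 0.24) and 0.93 (SE 0.16), and the subunit gene Atp6v0a2 rose by 0.87 (SE 0.30) and 0.95 (SE 0.30). The other gene that rose in footprints was Atp6v1g1 (log2 0.87, SE 0.19). Of 16 other convertases and trimming enzymes, 9 were tested, of which 2 rose and 1 fell in mRNA and 2 rose and 3 fell in footprints, and Furin was among those not tested. Qpctl rose by 0.94 (SE 0.31) in mRNA and 0.96 (SE 0.28) in footprints, and Ctsb, a lysosomal protease, fell by 0.67 (SE 0.24) and 0.82 (SE 0.18). Ctsl (log2 -0.64, SE 0.18) and Cpd (log2 -0.51, SE 0.18) were called lower in footprints. Without the block no gene of either list was called in mRNA.

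The genes whose profile was most like that of summed insulin were Th, Slc38a5, Adh1, Bcam and C1qa. Likeness was the mean of Pearson's r over the 9 mRNA-seq and over the 9 Ribo-seq libraries, which share treatments, experiments and total counts, and it ran from 0.967 to 0.979 for these 5. Th, which encodes tyrosine hydroxylase, had mean levels of 336 RPKM in control mRNA and 86.2 RPKM in CPA18, and Slc38a5, an amino acid transporter, 689 and 169 RPKM. Among the members Pcsk2 was the most like insulin after Ins1 and Ins2 themselves, with a mean r of 0.967, followed by Pcsk1 with 0.769. Iapp had r of 0.907 in mRNA and 0.111 in footprints, Cpe -0.34 and 0.677, and Pcsk1n 0.702 and -0.25.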

How the data were processed

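Per the labels and the study's methods, poly(A) RNA and RNase-protected fragments were sequenced, and reads of 15 to 40 bases were aligned by the authors to the mouse GRCm38 transcript reference with Bowtie2 (version not given in the sources used here) at no less than 95% identity. The deposited tables hold the read count of each transcript, not normalized, and the RPKM the authors computed from it per kilobase of transcript and scaled to the total of aligned reads. How reads matching several transcripts were shared is not given in the sources used here. Columns of RPM and transcript length were not used, and ribosome occupancy was computed here as a ratio of RPKM values.

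Of 30741 transcripts, 10163 had at least 1 read in all 18 libraries. They were summed to 6929 genes with RefSeq (30232 accessions matched with version, 478 without, 31 not). The members and gene lists were chosen with earlier results of these data known. Counts were tested with edgeR 4.0.16 (quasi-likelihood, total count as library size, experiment as block, Benjamini-Hochberg adjustment over all genes, threshold 0.05), with limma 3.58.1 on log2(RPKM + 0.5) and DESeq2 1.42.0 as alternatives. Occupancy was the assay by treatment interaction over all 18 libraries. Fold changes come from the fits and levels from RPKM. Ratios were compared by exact permutation tests. Genes of the lists that are named are the 2 largest increases and decreases called in CPA18 mRNA, and those most like insulin were ranked by mean r. Some list genes are not reported here. The test was checked on simulated data.

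The batch number in the labels is shared by the libraries of an experiment. Deviations of same-numbered libraries correlated with a mean r of 0.568 in mRNA-seq (0.112 to 0.762) and 0.142 in Ribo-seq (0.0801 to 0.19). The series describes the experiments as independent. In fits with the block, differences in level between experiments are removed, and the p-values rest on the spread that remains, estimated with information from all genes. Intervals of 2 SE rest on that remaining spread, not on the full spread between experiments. For summed insulin mRNA at CPA18 against control the SE was 0.45 with the block and 0.94 without it. Low counts limit Pcsk1 and Pam. The titles and descriptions of the control libraries of experiment 2 name opposite assays, and the titles, which the headings of the table match, were followed.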

Additional observations from a re-analysis of the deposited data

How the results depend on the processing

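Every result was recomputed under up to 14 other settings. DESeq2 changed the scaling along with the test, limma the values along with the test, and 1 fit took the library total without Ins1, Ins2 and Lars2 and no replicate block. That fit and the one with Lars2 left out of the total were chosen after seeing the data. Of the log2 fold changes recomputed, 645 kept their direction and side of the threshold, 40 lost the call, 27 gained it and 16 changed sign. Of the counts of members called, 105 stayed within 1.5 times, 13 were lower and 8 higher. Of the ratios, which could not pass the threshold in this design, 130 kept their direction and 20 changed sign. The causes were not tested. Without the replicate block the count of members called fell to 0 in mRNA-seq at CPA18 and from CPA1 to CPA18 and to 0 in Ribo-seq at CPA1, and the summed insulin genes lost the call in mRNA-seq at -1.98 for CPA18 against control and -1.66 for CPA18 against CPA1. With the insulin and Lars2 totals left out and no block, these were -2.25, which kept the call, and -2.16, with 4 and 2 members called, and 0 members were called in Ribo-seq at CPA1. Of all genes, 161 and 144 were called lower there in mRNA-seq, and 83 in Ribo-seq at CPA1. Genes called in mRNA-seq at CPA18 went from 1874 higher and 547 lower to 99 and 38 without the block and to 1129 and 1110 under TMM, and in Ribo-seq from 1772 and 433 to 824 and 848 under TMM. The member count at CPA1 in Ribo-seq was 1 by DESeq2, without a filter and with the most abundant transcript, and 0 by limma. At CPA1 in mRNA-seq it was 1 with the insulin genes left out of the total, at CPA18 in mRNA-seq 8 without Lars2, and in occupancy at CPA18 1 by TMM, DESeq2, no filter and either total without Lars2. The 8 included Cpe, called higher, while the others were called lower. Of all genes, 2267 were called higher and 585 lower in mRNA-seq at CPA18 without Lars2. Footprints of Pcsk1n at CPA18 changed by -0.29 under TMM, -0.30 by DESeq2, -0.13 without the insulin genes in the total, and -0.097 and, with no block, -0.087 without the insulin genes and Lars2. The occupancy of summed insulin at CPA1 was -0.026 without the insulin genes and Lars2 in the totals and -0.029 without Lars2, and the log2 ratio of Ins1 to Ins2 in footprints at CPA1 was 0.0078 above control with the most abundant transcript.

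Leaving out each experiment, or control replicate 2, gave these lowest and highest values. Members called numbered 0 to 1 at CPA1 in each assay. For CPA18 against control in mRNA-seq the log2 values were -2.13 to -1.88 for Ins1+Ins2, -0.13 to 0.052 for Scg5 and -0.25 to 0.39 for the ratio of Pcsk1 to Pcsk2. For CPA18 against CPA1 in mRNA-seq the log2 values were -1.96 to -1.57 for Ins1+Ins2 and -0.21 to 0.10 for the ratio of Pcsk1 to Pcsk2. For CPA1 against control in Ribo-seq the log2 values were -0.17 to 0.0075 for Ins1+Ins2, -0.010 to 0.029 for the ratio of Ins1 to Ins2, -0.16 to 0.27 for the ratio of Pcsk1 to Pcsk2 and -0.065 to 0.62 for the ratio of Pcsk1n to Pcsk1. For CPA18 against control in Ribo-seq the log2 values were -0.17 to 0.0030 for Scg5, -0.050 to 0.27 for Pcsk1n and -0.31 to 0.29 for the ratio of Pcsk1 to Pcsk2. For CPA18 against control in occupancy the log2 values were -0.61 to 0.24 for Pcsk1, -0.24 to 0.13 for Pcsk2 and -0.091 to 0.57 for Pam. For CPA1 against control in mRNA-seq the log2 values were -0.12 to 0.0062 for the ratio of Ins1 to Ins2, -0.12 to 0.29 for the ratio of Pcsk1 to Pcsk2, -0.059 to 0.14 for the ratio of Scg5 to Pcsk2 and -0.10 to 0.21 for the ratio of Iapp to Ins1+Ins2. For CPA18 against CPA1 in Ribo-seq the log2 values were -0.19 to 0.017 for the ratio of Pcsk1 to Pcsk2. Depth limits Pcsk1 and Pam, with as few as 13 and 8 footprints in a library.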

Other observations

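The genes in this paragraph were named after their values were seen. The oxidases of the ER moved in opposite directions at CPA18, where Ero1a rose by 1.36 (SE 0.31) in mRNA and 1.54 (SE 0.27) in footprints on the log2 scale while Ero1b fell in both. Hspa5, which encodes the ER chaperone BiP, rose by 1.83 (SE 0.25) in mRNA and 1.94 (SE 0.15) in footprints. Igf2, a growth factor made as a prohormone, fell by 0.97 (SE 0.25) in mRNA and was the only gene of the 5 pathway lists called in occupancy at CPA18 (log2 1.30, SE 0.28, adjusted p = 0.0103 by edgeR).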
